A study of Mus musculus with 6 samples.

Results

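Fibrillar collagens need enzymes and a chaperone of the secretory pathway before they can form a stable fibre, and the genes of 10 of these proteins were followed in mouse chondrocytes with a deletion in Ppp1r15b and in controls. They comprise the prolyl 4-hydroxylase subunits P4ha1 and P4ha2, the lysyl hydroxylases Plod1, Plod2 and Plod3, the collagen chaperone Serpinh1, the prolyl 3-hydroxylase partner Crtap, and the lysyl oxidases Lox, Loxl1 and Loxl2. The genes were taken by symbol from a table of 17666 genes; all 10 were found there, and all 10 were among the 13692 genes that had enough counts to be tested.

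The KO group (Ppp1r15bPrx1;Rosa26mT/mG, 3 libraries) carried a Ppp1r15b deletion made by Prx1-Cre, and the WT group (Prx1-Cre;Rosa26mT/mG, 3 libraries) had the same Cre and the same mT/mG reporter but no deletion. Prx1-Cre acts in early limb mesenchyme, which forms other limb tissues besides cartilage. GFP-positive cells were sorted from the digested knees of newborn mice (P0) and, per the labels, cultured in DMEM until they were mature chondrocytes, although the design text reads as RNA taken straight after sorting. Ppp1r15b encodes CReP, the constitutive subunit that directs a phosphatase to the translation factor eIF2alpha; the labels name no age after P0 and do not say whether libraries came from separate animals or cultures. The p-values below therefore set the difference between the groups against the spread of these particular libraries, and that spread may be technical.

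In the endoplasmic reticulum, prolyl 4-hydroxylases act on proline of the nascent chains, which lets the triple helix stay folded at body temperature, and lysyl hydroxylases modify lysines that later carry sugars or cross-links. The hydroxylases need oxygen, iron, 2-oxoglutarate and ascorbate. HSP47, the product of Serpinh1, binds folded procollagen and accompanies it out of the endoplasmic reticulum, and outside the cell the copper enzymes of the lysyl oxidase family oxidise lysines so that neighbouring molecules cross-link.

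The libraries held 18380875 to 19581601 estimated counts in KO and 18757785 to 19643946 in WT. Ppp1r15b had 355, 428 and 557 counts in KO replicates 1 to 3, against 1707, 960 and 1675 in WT replicates 1 to 3. It averaged 23.4 ± 4.13 CPM (counts scaled to a common library size) in KO and 76.1 ± 20.7 CPM in WT (SD, n = 3 each), a difference of -1.70 on the log2 scale (SE 0.242, adjusted p = 0.0297 by edgeR). KO replicates 1 to 3 still held 25.4%, 30.9% and 36.2% of the WT mean, and which exons were deleted is not given in the sources used here. KO replicate 3 stood apart from its group: KO replicates 1 and 2 correlated over all genes at r = 0.9935 on the log2 CPM scale, and each of them with KO replicate 3 at 0.9346 and 0.9337. KO replicate 3 was closer to WT replicates 1 to 3 (0.9417, 0.9515 and 0.944), as were KO replicates 1 and 2 (0.939 to 0.965). WT replicate 2 also stood apart, but less: it correlated with WT replicates 1 and 3 at 0.9823 and 0.9819, and those with each other at 0.9938. It was the WT library nearest to each KO library. The summed level of 14 chondrocyte markers was 39462 to 41135 CPM in KO and 36395 to 48688 CPM in WT. Col2a1 made up most of that sum, at 25053, 25749 and 27050 CPM in KO replicates 1 to 3, against 28551, 35327 and 26817 CPM in WT replicates 1 to 3. Of the 14, 2 rose, 0 fell and 12 had a higher estimate in KO, beside 0.884% of all tested genes that rose and 1.63% that fell. Sums for 5 other lists lay lower in KO libraries than in any WT library: 43.4 to 48.7 CPM against 453 to 916 CPM in WT for 10 adipocyte genes, 14.3 to 136 CPM against 177 to 331 CPM in WT for 9 macrophage genes, 448 to 998 CPM against 1105 to 1193 CPM in WT for 6 hypertrophic chondrocyte genes, 4550 to 8132 CPM against 8692 to 9239 CPM in WT for 10 fibroblast and tendon genes, and 11.8 to 12.7 CPM against 12.9 to 16.9 CPM in WT for 6 endothelial genes. Of the genes tested in these 5 lists, 9 of 9 adipocyte, 1 of 8 macrophage, 3 of 5 hypertrophic, 3 of 9 fibroblast and tendon and 0 of 6 endothelial genes fell, and 0 rose. The remaining sums were 2765 to 10207 CPM against 9840 to 13447 CPM in WT for 7 osteoblast genes and 15.9 to 225 CPM against 83.4 to 636 CPM in WT for 10 skeletal muscle genes. No marker in these 8 lists was at 0 in all 6 libraries. In such bulk samples, fewer cells of a type and less RNA per cell cannot be told apart.

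Loxl2 was the 1 enzyme that fell in KO, by edgeR, DESeq2 and limma-voom. Of the 10 genes, 1 fell, 0 rose and 9 were not called (edgeR quasi-likelihood test, adjusted p under 0.05 over all genes), beside 1.63% of all tested genes that fell and 0.884% that rose. At an unadjusted p under 0.05 there were 2 of the 10, Loxl2 and Plod2. The KO libraries lay below all WT libraries in 3 of the 10 (Loxl2, Plod2 and Lox) and above them in 0, where 14.5% of all tested genes lay below and 14.0% above. The median log2 fold change was -0.13 over the 10 genes and 0.01 over all tested genes. Without KO replicate 3, 5 of the 10 fell (P4ha1, P4ha2, Plod2, Lox and Loxl2) and 2 rose (Crtap and Loxl1), but so many genes were then called that 16.1% of all tested genes fell and 12.5% rose. That fit takes its KO spread from replicates 1 and 2 alone, which are close to each other.

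Per length, the 10 transcripts spanned a wide range of levels. On the deposited TPM scale, which accounts for gene length, Serpinh1 was the most abundant in each of the 6 libraries, at 3327 ± 415 TPM in KO and 3270.0 ± 23.6 TPM in WT (SD, n = 3 each). Loxl2 was the least abundant in each of the 6, at 83.7 ± 3.99 TPM in KO and 141 ± 9.30 TPM in WT. Lox came second in both groups by its mean, at 863 ± 433 TPM in KO and 1524 ± 102 TPM in WT. The other 7 averaged 189 to 391 TPM in KO and 213 to 438 TPM in WT. The KO order was Serpinh1, Lox, Crtap, P4ha1, Loxl1, Plod1, Plod2, Plod3, P4ha2 and Loxl2, and from Lox to P4ha2 each range over libraries overlapped that of its neighbour, so those places are not separated beyond their spread. The WT order was Serpinh1, Lox, P4ha1, Crtap, Plod2, Loxl1, Plod1, P4ha2, Plod3 and Loxl2. In WT the ranges of neighbours overlapped only between Crtap and Plod2 and between Loxl1 and Plod1.

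**Figure D1:**
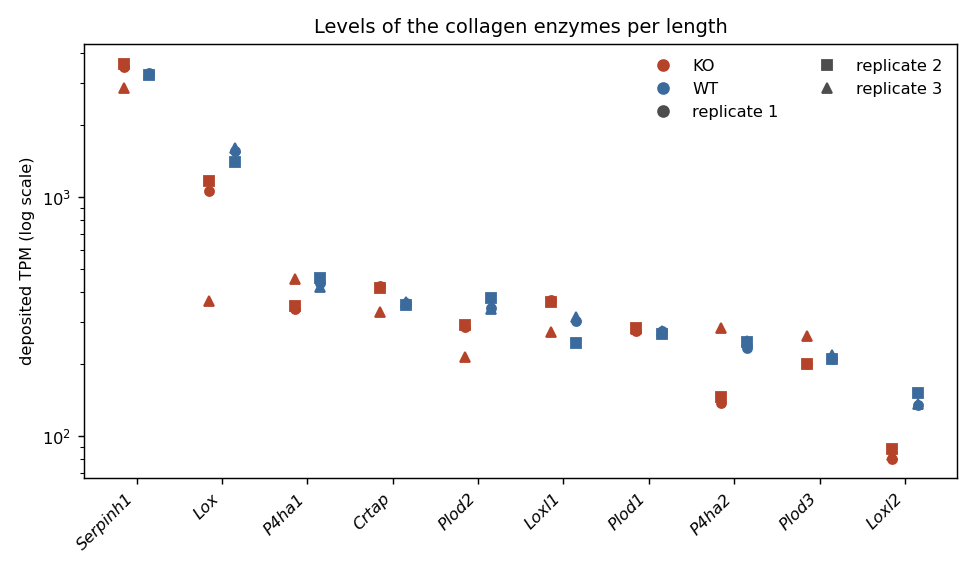
Deposited TPM (log axis) of the 10 collagen enzymes, ordered by their WT mean, with KO libraries left (red) and WT libraries right (blue) of each position and one symbol per replicate. Serpinh1 sits at the top and Loxl2 at the bottom in all 6 libraries, and the Lox value of KO replicate 3 (367 TPM) lies far below the other Lox values.

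The lysyl oxidases moved in different ways. Loxl2 encodes a lysyl oxidase with scavenger receptor repeats that acts on basement membrane and fibrillar collagens. The gene (Entrez 94352) lies at chr14:69609068-69695834 in GRCm38 (GENCODE vM21). It stood at 195, 205 and 193 CPM in KO replicates 1 to 3, against 318, 376 and 324 CPM in WT replicates 1 to 3. The 3 KO libraries (SD 6.61 CPM) all lay below the lowest WT library. The log2 fold change was -0.78 (SE 0.089, 95% interval -1.0 to -0.56, adjusted p = 0.019, edgeR), and KO replicates 1 to 3 held 57.4%, 60.4% and 56.8% of the WT mean. KO replicate 3 differed in Loxl2 from the mean of the other KO libraries by -0.05 on the log2 scale. The fall was as large without KO replicate 3 (-0.76, SE 0.081, edgeR adjusted p = 0.000633). The call was lost when KO replicate 1, KO replicate 2, WT replicate 1 or WT replicate 3 was left out, at fold changes of -0.77, -0.81, -0.83 and -0.81 (edgeR adjusted p = 0.0989, 0.106, 0.114 and 0.121). In each of these 4 edgeR fits 0 genes of the whole table were called, with 1555 to 2345 at an unadjusted p under 0.05 (the other tools were not run on these subsets), so this limit holds for each edgeR call over all libraries named here. With the replicate number as a block, the Loxl2 estimate was -0.78 (edgeR adjusted p = 0.105). Several marker lists were lower in the same KO libraries, with the sums given above, and their part in the Loxl2 difference was not tested.

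Lox, the founding enzyme of the family, had 2297, 2469 and 774 CPM in KO replicates 1 to 3, against 3338, 3161 and 3453 CPM in WT replicates 1 to 3. All KO libraries lay below all WT libraries, but KO replicate 3 held 23.3% of the WT mean where replicates 1 and 2 held 69.3% and 74.4%. With all libraries the log2 fold change of -0.84 was not called (SE 0.416, 95% interval -1.85 to 0.16, edgeR adjusted p = 0.334). Without KO replicate 3 it was smaller and called (-0.47, SE 0.0731, edgeR adjusted p = 0.00309). Some markers of connective tissue cells were low in KO replicate 3 and others were not. Col1a1, a chain of type I collagen, had 9875, 10139 and 2675 CPM in KO replicates 1 to 3, against 13367, 9760.0 and 13081 CPM in WT replicates 1 to 3, and it makes up nearly all of the osteoblast sum. Col3a1, which encodes type III collagen, had 4516, 4645 and 1351 CPM in KO replicates 1 to 3, against 4282, 3354 and 3888 CPM in WT replicates 1 to 3. The osteocalcin gene Bglap, by contrast, was highest in KO replicate 3, with 1.14, 1.15 and 17.6 CPM in KO replicates 1 to 3, against 4.52, 6.75 and 5.54 CPM in WT replicates 1 to 3. The tendon factor Scx was also highest there, with 16.0, 15.5 and 20.9 CPM in KO replicates 1 to 3, against 18.2, 18.3 and 19.9 CPM in WT replicates 1 to 3. Scx was an exception in the fibroblast and tendon list. Against the mean of KO replicates 1 and 2, KO replicate 3 was lower in Tnmd (log2 difference -2.77), Dpt (-3.23), Pdgfra (-1.94), Col3a1 (-1.76), Pi16 (-1.19) and Dpp4 (-1.02). It differed less in Thbs4 (-0.22), Tnc (-0.05) and Vim (0.003). Col1a1, Col3a1, Bglap and Scx were chosen after their values were seen. Their part in the Lox level of KO replicate 3 was not tested.

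Loxl1, an oxidase best known for elastic fibres, had 562, 530.1 and 396 CPM in KO replicates 1 to 3, against 446, 382 and 467 CPM in WT replicates 1 to 3. Here KO replicates 1 and 2 lay above all WT libraries and KO replicate 3 among them. The difference was not called (0.20, SE 0.156, 95% interval -0.18 to 0.58, edgeR adjusted p = 0.544), and without KO replicate 3 it was (0.34, SE 0.0917, edgeR adjusted p = 0.0282).

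**Figure D2:**
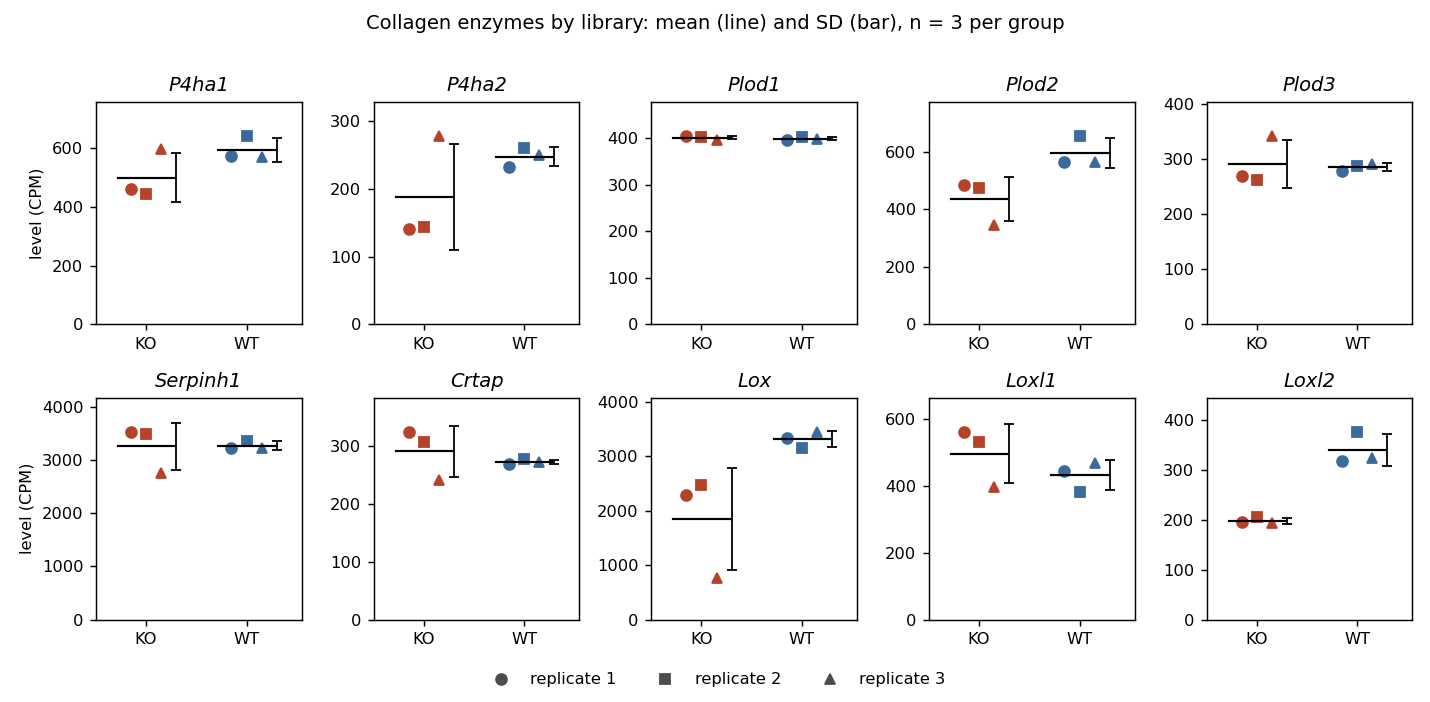
CPM of each collagen enzyme in the KO libraries (left, red) and the WT libraries (right, blue) of each panel, with one symbol per replicate, the group mean as a line and its SD as a bar (n = 3 each; each axis starts at 0). The 3 Loxl2 values of KO (193 to 205 CPM) sit below all WT values, while KO replicate 3 (triangle) parts from the other KO libraries in 8 of the 10 panels, most in Lox and P4ha2.

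Among the lysyl hydroxylases, Plod2 was lower in KO in each library and Plod1 differed little. Plod2 encodes LH2, which acts on lysines of the collagen telopeptides and so directs the kind of cross-link that forms. The gene (Entrez 26432) lies at chr9:92542223-92608428. It had 483, 474 and 346 CPM in KO replicates 1 to 3, against 564, 655 and 564 CPM in WT replicates 1 to 3. The groups did not overlap, and KO replicate 3 was the lowest. The log2 fold change of -0.45 (SE 0.151, 95% interval -0.82 to -0.09) was not called (edgeR adjusted p = 0.185; unadjusted p = 0.0229) and was -0.31 without KO replicate 3 (SE 0.0752, edgeR adjusted p = 0.0196).

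Plod1 encodes the lysyl hydroxylase of the helical part. It had 405, 402 and 397 CPM in KO replicates 1 to 3, against 396, 402 and 399 CPM in WT replicates 1 to 3. Its log2 fold change was 0.01 (SE 0.0631, 95% interval -0.15 to 0.16, edgeR adjusted p = 0.965), the narrowest interval of the 10. Plod3, which encodes a lysyl hydroxylase that also adds glucose to collagen, had 270.2, 262 and 342 CPM in KO replicates 1 to 3, against 279, 288 and 292 CPM in WT replicates 1 to 3. All WT libraries lay above KO replicates 1 and 2 and below KO replicate 3, and the log2 fold change was 0.03 (SE 0.117, 95% interval -0.26 to 0.31, edgeR adjusted p = 0.938). Exons of Plod3 overlap those of Znhit1 on the other strand in GENCODE vM21, and its counts, like those of Loxl2, are not whole, so reads of this gene are uncertain. Antisense or tentative genes of that annotation also overlap exons of Plod2, Lox and Loxl2, and no strand setting is given for the tables.

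The table holds 2 Plod2 forms that differ by 1 coding exon, shown here because the transcript table counts them separately. The alternative exon lies on the plus strand of GRCm38 at chr9:92601985-92602047, is 63 bases long and adds 21 residues. It is printed in capitals between the last and first 20 bases of its neighbours, followed by the junction of the form without it.
Plod2 with the exon (NM_001142916.1): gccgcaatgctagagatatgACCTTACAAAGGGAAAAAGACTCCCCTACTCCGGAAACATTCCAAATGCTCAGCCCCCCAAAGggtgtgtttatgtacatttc
Plod2 without the exon (NM_011961.3): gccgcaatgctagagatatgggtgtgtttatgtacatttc
The long form, known as LH2b, is the one linked to telopeptide hydroxylation. The short form held 3.90%, 5.38% and 14.3% of Plod2 estimated counts in KO replicates 1 to 3, against 7.43%, 8.07% and 6.14% in WT replicates 1 to 3. The WT range lay between KO replicates 1 and 2 and the higher KO replicate 3, and the means were 7.85 ± 5.61% in KO and 7.21 ± 0.981% in WT (SD, n = 3 each). The exact permutation test gave p = 1.0, two-sided, and cannot go below 0.1 with 3 libraries a group. In estimated counts the short form had 347, 465 and 999 in KO replicates 1 to 3, against 825, 972 and 651 in WT replicates 1 to 3. These counts are not scaled for library size.

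The prolyl 4-hydroxylase subunits split the KO libraries. P4ha1 and P4ha2 encode alternative catalytic subunits that pair with the P4hb product, and lie at chr10:59323296-59373304 (Entrez 18451) and chr11:54100095-54131665 (Entrez 18452). P4ha2 had 141, 144 and 278 CPM in KO replicates 1 to 3, against 233, 261 and 250.2 CPM in WT replicates 1 to 3. Of the WT mean, KO replicates 1 and 2 held 57.0% and 57.9%, and KO replicate 3 held 112% and lay above all WT libraries. Over all libraries the log2 fold change was -0.40 (SE 0.275, 95% interval -1.07 to 0.27, edgeR adjusted p = 0.489), and without KO replicate 3 it was -0.80 (SE 0.0624, edgeR adjusted p = 0.000165), the largest of the 10 in that fit.

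P4ha1 had 459, 444 and 596 CPM in KO replicates 1 to 3, against 573, 642 and 568 CPM in WT replicates 1 to 3. KO replicates 1 and 2 again lay below all WT libraries, and KO replicate 3 lay among them. The log2 fold change was -0.25 with all libraries (SE 0.136, 95% interval -0.58 to 0.08, edgeR adjusted p = 0.38) and -0.39 without KO replicate 3 (SE 0.0674, edgeR adjusted p = 0.00484). P4hb itself, their shared beta subunit, had 1394, 1382 and 1438 TPM in KO replicates 1 to 3, against 1539, 1536 and 1546 TPM in WT replicates 1 to 3, with the groups apart and a log2 fold change of -0.16 that was not called (SE 0.0879, edgeR adjusted p = 0.376).

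Both alpha subunit genes have a pair of coding exons of which a transcript holds 1 or the other. They are shown in capitals between 20 bases of the flanking exons (GRCm38, plus strand), since the counts of their forms are compared next.
P4ha2 chr11:54126238-54126297 (NM_001136076.2): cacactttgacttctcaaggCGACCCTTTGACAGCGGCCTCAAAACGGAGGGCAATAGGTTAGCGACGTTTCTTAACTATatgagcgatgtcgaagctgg
P4ha2 chr11:54126346-54126411 (NM_011031.2): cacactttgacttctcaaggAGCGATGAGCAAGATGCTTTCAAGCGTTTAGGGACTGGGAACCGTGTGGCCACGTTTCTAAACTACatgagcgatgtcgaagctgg
P4ha1 chr10:59354340-59354410 (NM_011030.2): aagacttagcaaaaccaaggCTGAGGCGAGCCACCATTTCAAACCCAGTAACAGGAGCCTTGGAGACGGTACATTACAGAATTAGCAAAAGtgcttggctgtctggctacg
P4ha1 chr10:59355350-59355420 (NM_001316371.1): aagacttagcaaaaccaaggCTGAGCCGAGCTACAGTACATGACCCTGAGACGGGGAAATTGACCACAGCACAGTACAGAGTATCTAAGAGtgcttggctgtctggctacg
The P4ha2 exons are 60 and 66 bases long, and the P4ha1 exons are 71 bases each with 42 identical positions (59.2%). The P4ha2 form with the exon of 66 bases held 29.5%, 29.6% and 24.1% of the gene's estimated counts in KO replicates 1 to 3, against 30.0%, 25.4% and 31.4% in WT replicates 1 to 3 (two-sided exact permutation p = 0.5). For P4ha1 the form with the exon at chr10:59355350 held 8.32%, 5.56% and 5.56% in KO replicates 1 to 3, against 5.26%, 4.55% and 5.18% in WT replicates 1 to 3. KO libraries lay above all WT libraries for this form, the mean being 6.48 ± 1.60% in KO and 5.00 ± 0.384% in WT (SD, n = 3 each), with an exact permutation p of 0.1, the smallest this design allows. It was the 1 of 19 transcripts tested, from 7 of the 10 genes, whose groups did not overlap, and the adjusted exact permutation p was 0.864. Most P4ha1 counts went to transcripts with XR or XM accessions, whose exons were not compared here.

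**Figure D3:**
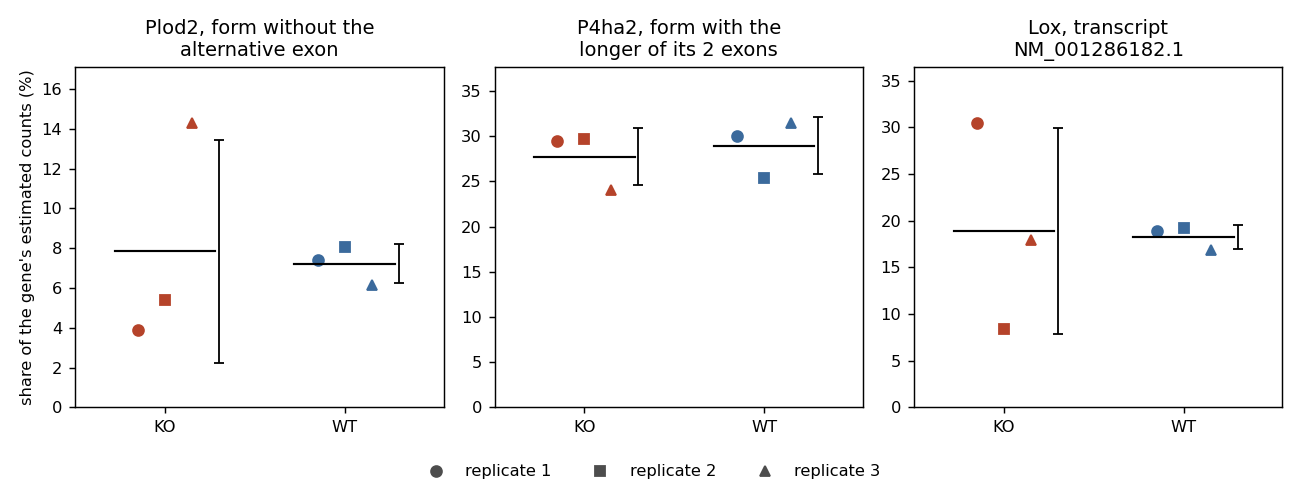
Share of a gene's estimated counts taken by 1 transcript in the KO libraries (left, red) and the WT libraries (right, blue), with one symbol per replicate, the mean as a line and the SD as a bar (n = 3 each). The Plod2 form without its alternative exon spans 3.90% to 14.3% in KO against 6.14% to 8.07% in WT, and the Lox transcript NM_001286182.1 spans 8.41% to 30.4% in KO against 16.8% to 19.2% in WT.

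The remaining transcript shares overlapped between the groups. Lox transcript NM_001286182.1 held 30.4%, 8.41% and 18.0% in KO replicates 1 to 3, against 18.9%, 19.2% and 16.8% in WT replicates 1 to 3, so even KO replicates 1 and 2, which were close over all genes, differed here. How counts were divided between transcripts is not given in the sources used here. The main Loxl2 transcript, XM_006519747.2, held 81.0%, 85.9% and 76.9% in KO replicates 1 to 3, against 86.9%, 84.8% and 89.6% in WT replicates 1 to 3 (two-sided exact permutation p = 0.2). Its estimated counts were 2900.0, 3212 and 2998 in KO replicates 1 to 3, against 5430.4, 5862 and 5445 in WT replicates 1 to 3, so the gene-level difference was seen in its main transcript. Crtap, Loxl1 and Plod1 had 1 transcript each in the table.

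The folding factors differed little over all libraries. Serpinh1 had 3530.0, 3494 and 2750.2 CPM in KO replicates 1 to 3, against 3232, 3359 and 3216 CPM in WT replicates 1 to 3. The WT libraries lay below KO replicates 1 and 2 and above KO replicate 3, and the log2 fold change was -0.0048 (SE 0.137, 95% interval -0.34 to 0.33, edgeR adjusted p = 0.993). The estimate turned to 0.11 without KO replicate 3 (SE 0.0601, edgeR adjusted p = 0.22). Crtap encodes cartilage-associated protein, which forms the prolyl 3-hydroxylation complex with the products of P3h1 and Ppib. It had 324, 306 and 241 CPM in KO replicates 1 to 3, against 268, 276 and 272 CPM in WT replicates 1 to 3, the same pattern over libraries as Serpinh1. Its log2 fold change was 0.09 (SE 0.12, 95% interval -0.20 to 0.38, edgeR adjusted p = 0.74) with all libraries and 0.22 without KO replicate 3 (SE 0.0532, edgeR adjusted p = 0.021).

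**Figure D4:**
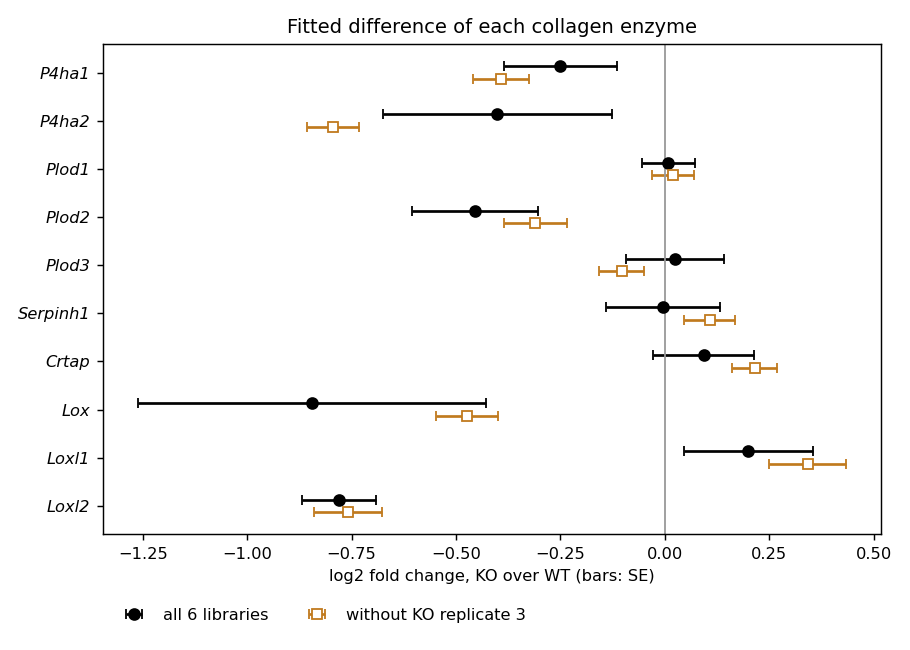
Log2 fold change of each collagen enzyme, KO over WT, with its SE, from the fit over all 6 libraries (black circles) and from the fit without KO replicate 3 (open squares). Loxl2 holds its place (-0.78 and -0.76), P4ha2 moves away from 0 (-0.40 and -0.80) and Lox towards it (-0.84 and -0.47).

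KO replicate 3 thus differed from the other KO libraries in most of these genes. Its absolute log2 difference from the mean of KO replicates 1 and 2 was above the median of all tested genes (0.29) in 8 of the 10. It was 1.62 for Lox, a size exceeded by 5.47% of all tested genes, and 0.96 for P4ha2, exceeded by 13.8%. At the other end 94.9% of all tested genes had a larger difference than Plod1 and 89.8% a larger one than Loxl2. Relative to those libraries, KO replicate 3 was higher in P4ha1, P4ha2 and Plod3 and lower in Plod2, Serpinh1, Crtap, Lox and Loxl1.

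Calls on the other genes of collagen modification and folding depended on the tool, and the counts from here on are those of edgeR over all libraries unless another is named. Of 8 further hydroxylase and glycosyltransferase genes, edgeR and limma-voom called 0, with a median log2 fold change of -0.03. The DESeq2 Wald test called P4hb lower, and limma-voom with library quality weights called Colgalt1 and P3h3 higher and P4ha3 lower. When KO replicate 3 was left out, edgeR called the same 3 genes, 2 higher and 1 lower. These fits called more genes of the whole table too. Of 13692 genes DESeq2 called 497 higher and 674 lower, where edgeR called 121 and 223. With quality weights 1918 were higher and 2389 lower. Without KO replicate 3, edgeR called 12.5% higher and 16.1% lower. The same background holds for the calls of these fits given below. Colgalt1, which adds galactose to hydroxylysine, had 271, 287 and 269 TPM in KO replicates 1 to 3, against 237, 246 and 244 TPM in WT replicates 1 to 3 (log2 fold change 0.15, SE 0.0721, edgeR adjusted p = 0.312). P3h2, a prolyl 3-hydroxylase chosen after its values were seen, had 22.0, 24.9 and 85.4 TPM in KO replicates 1 to 3, against 21.2, 24.5 and 19.2 TPM in WT replicates 1 to 3, a difference of KO replicate 3 alone. Of 9 folding factors edgeR called 0, with 7 lower estimates in KO, and Pdia3, a disulfide isomerase gene, was called lower by DESeq2, by limma-voom with quality weights and by edgeR without KO replicate 3. Sparc, which encodes a collagen-binding matrix protein, was at -0.19 (SE 0.185, edgeR adjusted p = 0.631), and the chaperone gene Hspa5 at 0.16 (SE 0.223, edgeR adjusted p = 0.754), with 811, 825 and 1415 TPM in KO replicates 1 to 3, against 900.5, 885 and 874 TPM in WT replicates 1 to 3. Of 10 tested genes of procollagen export edgeR called 0, Sec31a at -0.06 (edgeR adjusted p = 0.751) and Sec24d at -0.20 (edgeR adjusted p = 0.208), both coat subunits of the vesicles that leave the endoplasmic reticulum.

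Genes of propeptide removal and cross-linking outside the cell were not called by edgeR, DESeq2 or limma-voom over all libraries. There were 7 tested genes of propeptide removal. Pcolce, an enhancer of the C-propeptide protease, had 2798, 2709 and 1542 TPM in KO replicates 1 to 3, against 2000.1, 2051 and 2027 TPM in WT replicates 1 to 3, at a log2 fold change of 0.18 (edgeR adjusted p = 0.743). That protease, Bmp1, was at -0.04 (edgeR adjusted p = 0.961). When KO replicate 3 was left out, 3 of the 7 rose, beside 12.5% of all tested genes. The 11 further cross-linking enzymes and matrix partners included fibronectin, Fn1, at -0.12 (edgeR adjusted p = 0.766) and biglycan, Bgn, at 0.09 (edgeR adjusted p = 0.863). Without KO replicate 3, 3 of these 11 rose and 4 fell, beside 12.5% and 16.1% of all tested genes. Loxl4, another lysyl oxidase, was chosen after its values were seen: it had 374, 385 and 2066 CPM in KO replicates 1 to 3, against 461, 505 and 485 CPM in WT replicates 1 to 3. The first pair of KO libraries lay below the WT libraries and KO replicate 3, where Lox was at its lowest, far above them.

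The substrates of these enzymes gave 2 calls among 19 collagen genes. The cartilage collagens Col9a2 (log2 fold change 1.05, SE 0.187, edgeR adjusted p = 0.0496) and Col11a2 (0.79, SE 0.135, edgeR adjusted p = 0.0466) rose (limma-voom called Col11a2 alone), the other 17 had no call in either direction, and the median of the list was -0.08. Leaving KO replicate 3 out gave 6 that rose and 4 that fell, where 12.5% of all tested genes rose and 16.1% fell. Of 7 elastic fibre genes, substrates or partners of Lox and Loxl1, edgeR, DESeq2 and limma-voom called 0 over all libraries. By edgeR 4 rose without KO replicate 3, beside the same 12.5% of all tested genes. Fbn1, the main microfibril gene, was at 0.07 (edgeR adjusted p = 0.955) and Emilin1 at 0.11 (edgeR adjusted p = 0.725). Mfap4, a microfibril-associated gene chosen after its values were seen, had 151, 144 and 4.94 CPM in KO replicates 1 to 3, against 60.0, 40.9 and 57.7 CPM in WT replicates 1 to 3.

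For cofactor supply, edgeR called 1 of 8 tested genes lower and 0 higher, while DESeq2 also called the ascorbate transporter gene Slc23a2 higher. Glrx, the lower one, encodes glutaredoxin and had 56.3, 54.0 and 42.8 TPM in KO replicates 1 to 3, against 80.8, 79.3 and 84.3 TPM in WT replicates 1 to 3 (log2 fold change -0.71, SE 0.125, edgeR adjusted p = 0.0489). The glucose transporter Slc2a1, which also carries oxidised ascorbate, was at 0.46 (edgeR adjusted p = 0.634). It had 128, 125 and 383 TPM in KO replicates 1 to 3, against 138, 151 and 161 TPM in WT replicates 1 to 3. Without KO replicate 3 its estimate turned to -0.26 (edgeR adjusted p = 0.0427). Idh1, a maker of 2-oxoglutarate, was at -0.31 over all libraries (edgeR adjusted p = 0.4). Of 7 genes of copper supply edgeR called 0 and DESeq2 called the copper chaperone gene Atox1 lower, with Sod3 at -0.31 (edgeR adjusted p = 0.255) and the copper importer Slc31a1 at -0.01 (edgeR adjusted p = 0.954). Of 11 genes that supply proline and glycine, the residues collagen holds most, 1 rose, 0 fell and 10 were not called. Phgdh, the first step of serine synthesis, rose by 0.68 (SE 0.119, edgeR adjusted p = 0.0481; not called by limma-voom), and Shmt2, which makes glycine from serine, was at 0.45 (edgeR adjusted p = 0.344).

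P4ha1, P4ha2, Plod2 and Lox are among the known targets of the oxygen-regulated factor HIF-1, so 16 genes of the hypoxia response were set beside the members. Other members may be targets as well. Over all libraries 1 of the 16 rose (Vegfa, an angiogenic factor gene, at 0.45, SE 0.0693, edgeR adjusted p = 0.0375) and the other 15 had no edgeR call (DESeq2 called Pfkfb3 lower), with a median log2 fold change of -0.33. When KO replicate 3 was left out, 13 of the 16 fell and 1 rose, beside 16.1% of all tested genes that fell and 12.5% that rose. The glycolytic enzyme Eno1 had 2094, 2005 and 3339 TPM in KO replicates 1 to 3, against 2825, 3145 and 3128 TPM in WT replicates 1 to 3, and Aldoa had 1579, 1542.5 and 2499 TPM in KO replicates 1 to 3, against 2216, 2234 and 2419 TPM in WT replicates 1 to 3. On this TPM scale, KO replicates 1 and 2 lay below and KO replicate 3 above all WT libraries in both, as in P4ha2. In CPM this also held for Aldoa and P4ha2. For Eno1, KO replicate 3 (2532 CPM) then lay below WT replicate 2 (2560 CPM). Over the 16 genes KO replicates 1 and 2 lay below the WT mean in 15 each, and KO replicate 3 in 3. Lox and Plod2 did not follow this pattern, since KO replicate 3 was their lowest library. Nor did Loxl2, which lay below the WT mean by a like amount in KO replicates 1 to 3 (log2 -0.80, -0.72 and -0.81).

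**Figure D5:**
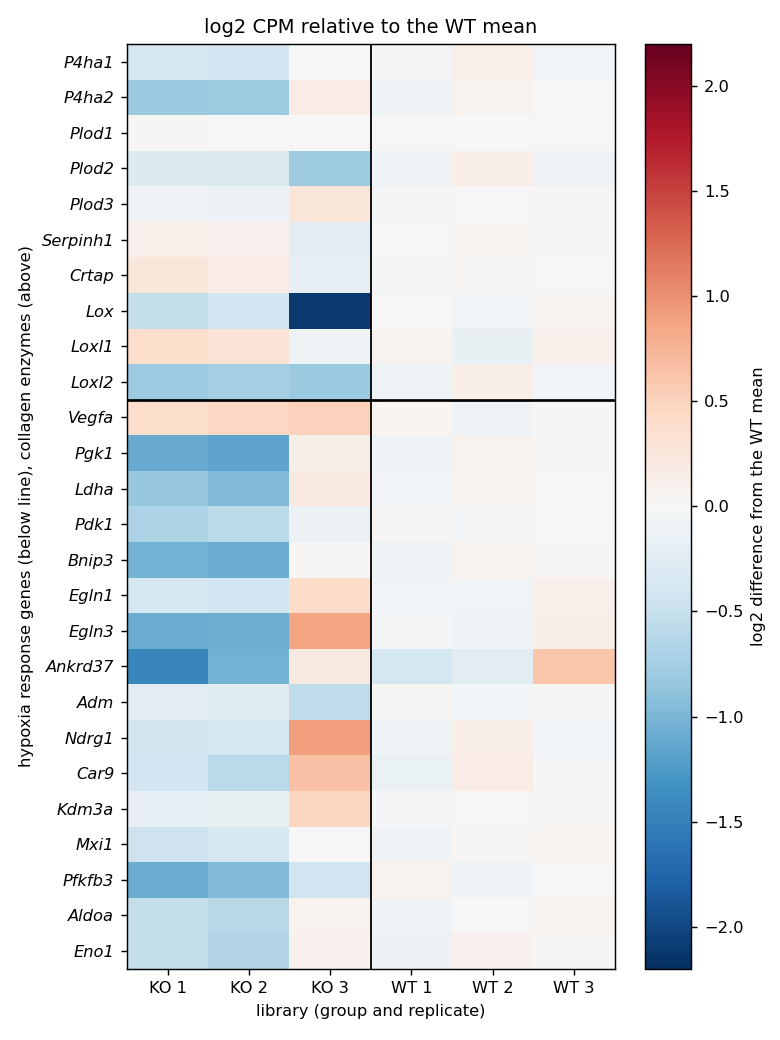
Log2 CPM of the 10 collagen enzymes (above the line) and 16 hypoxia response genes (below it) in each library, as the difference from the WT mean of the gene, KO libraries left and WT libraries right. P4ha1 and P4ha2 share the blue of KO replicates 1 and 2 with most hypoxia genes and lose it in KO replicate 3, while Loxl2 is lower in all 3 KO libraries (-0.80, -0.72 and -0.81) and Lox is lowest in KO replicate 3 (-2.10).

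The promoters of P4ha1 and P4ha2 are shown because these genes split the KO libraries in the way most hypoxia genes did. Plod3 also split them in this way. They run from 250 bases before to 50 after the gene start in RefSeq (GRCm38.p6, plus strand). This places the P4ha2 start downstream of the GENCODE vM21 start given above. ACGTG, 1 form of the core letters of a hypoxia response element, is in capitals where found on either strand.
P4ha1 chr10:59323046-59323345: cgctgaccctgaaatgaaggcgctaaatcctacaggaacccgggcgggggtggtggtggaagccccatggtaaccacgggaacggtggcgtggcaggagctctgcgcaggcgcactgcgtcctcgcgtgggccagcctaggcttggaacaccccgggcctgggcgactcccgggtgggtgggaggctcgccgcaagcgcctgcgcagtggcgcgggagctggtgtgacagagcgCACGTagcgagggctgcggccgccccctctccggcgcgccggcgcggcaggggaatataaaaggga
P4ha2 chr11:54100674-54100973: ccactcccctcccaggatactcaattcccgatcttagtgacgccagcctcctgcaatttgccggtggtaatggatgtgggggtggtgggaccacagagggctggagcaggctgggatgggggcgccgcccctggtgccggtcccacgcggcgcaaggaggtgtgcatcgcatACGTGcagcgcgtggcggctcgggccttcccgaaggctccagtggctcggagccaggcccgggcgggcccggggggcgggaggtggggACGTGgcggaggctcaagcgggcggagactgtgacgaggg
P4ha1 held 1 match and P4ha2 held 2. Of the 6 members with an entry in the promoter table (P4ha1, P4ha2, Plod1, Plod3, Serpinh1 and Crtap), 4 held a match, the others with 1 being Plod3 and Serpinh1. Of the 27025 promoters of that length, 19.7% held at least 1. With the form GCGTG counted as well, each of the 6 members held a match: P4ha1 3, P4ha2 4, Plod1 2, Plod3 4, Serpinh1 1 and Crtap 3. The share of all promoters with either form was not counted. The other members with an ACGTG match went different ways over the KO libraries. In Plod3, KO replicates 1 and 2 lay below and KO replicate 3 above all WT libraries, as in P4ha2. In Serpinh1, KO replicate 3 was the lowest. A match is a run of letters and not a measured binding site. Whether HIF-1 had a part in the levels of any of these genes was not tested.

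Among 10104 tested genes outside the 10 with a mean log2 CPM above 3, the gene nearest to an enzyme was sought by its pattern over the 6 libraries, measured as the root mean square difference of log2 CPM centred on the gene's own mean. Loxl2 was nearest to Crbn, the cereblon gene (0.037 on the log2 scale; log2 fold change of Crbn -0.81, edgeR adjusted p = 0.0226). P4ha2 was nearest to the glycolytic gene Pgam1 (0.034), P4ha1 to Rps27l (0.028) and Plod2 to Spats2l (0.053). Plod1 was nearest to Ube2j1 (0.0073), Serpinh1 to Msl1 (0.018), Crtap to St6galnac4 (0.024), Loxl1 to Trmu (0.043) and Lox to Igfals (0.072), the widest of these distances.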

How the data were processed

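RNA-seq libraries of 3 KO and 3 WT samples were grouped by their titles. The estimated counts, TPM and FPKM per gene and per RefSeq transcript are those the authors deposited. Per the labels' protocols, reads were aligned with STAR 2.7.5a to mm10, assigned to GENCODE vM25 with featureCounts 2.0.0 and compared with DESeq2 1.28.1. The deposited tables hold Entrez and RefSeq features and 12.9% non-whole counts (tolerance 0.001), so how these tables were counted, and with which strand setting, is not given in the sources used here. Transcript counts of the 10 genes added up to their gene counts within 0.01.

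The deposited estimated counts were rounded. Genes passing filterByExpr (minimum count 10, minimum total 15) were scaled by TMM and fitted with the edgeR quasi-likelihood method in R 4.3.3 (edgeR 4.0.16, limma 3.58.1, DESeq2 1.42.0), two-sided, KO over WT, with Benjamini-Hochberg adjustment over 13692 genes. A gene is said to have risen or fallen at an adjusted p under 0.05. The SE is the fold change over the square root of F, and the 95% interval uses the fit's degrees of freedom. CPM used TMM-scaled sizes, and centred log2 CPM a prior count of 2. Deposited TPM values ranked the genes by level, and deposited FPKM values served as the alternative. Shares of transcripts holding at least 5% of a gene's counts were compared by exact permutation (scipy 1.17.1). Positions are from GENCODE vM21 (GRCm38, the build mm10 stands for) and exon sequences from its transcripts.

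Within a group, libraries differed beyond counting noise (chi-square per degree of freedom 3.04 to 128), so all 6 were kept as separate samples. The KO over WT fit was tested on simulated data with the dispersion of all 6 libraries (13565 genes): it recovered 48% of the 100 genes set to a 2-fold change and 91% of the 100 set to a 4-fold change, and made 7 false calls. The members and gene lists were chosen with earlier results of these data known. Named genes were the 10 members, Ppp1r15b, up to 3 called genes of a list by size of change or, with fewer than 2 called, its 2 most abundant, and the nearest gene in pattern, which for Plod3 is not reported here; exceptions are stated. No protein table was used, and promoters of Plod2, Lox, Loxl1 and Loxl2 are not shown.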

Additional observations from a re-analysis of the deposited data

How the results depend on the processing

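The number of enzymes called depended on single libraries. Leaving out 1 library in turn gave 0 to 5 that fell and 0 to 2 that rose. KO replicate 3 and WT replicate 2 were each the library least correlated with the others of its group. With both left out, and with limma-voom with library quality weights, 5 fell and 2 rose. Many genes of the whole table were called in these fits too. Without both libraries 3000 of 13804 tested genes fell and 2416 rose. With quality weights 2389 of 13692 fell and 1918 rose. With the replicate number as a block 0 fell, Loxl2 being at -0.78 (adjusted p = 0.105), and Ppp1r15b was at -1.67 (adjusted p = 0.116); the edgeR calls over all genes went to 1 higher and 4 lower, with 2057 genes at an unadjusted p under 0.05. Whether the numbers pair the samples was not settled. Same-numbered KO and WT libraries deviated from their group means together at r = -0.14, 0.21 and 0.24 for replicates 1 to 3. WT replicates 1, 2 and 3 correlated best with KO replicates 3, 1 and 3. With 3 libraries a group and KO replicate 3 apart from the others, these correlations cannot exclude pairing. The DESeq2 Wald test, limma-voom, DESeq2 size factors in edgeR, scaling by library size alone, both filters on low counts, robust quasi-likelihood and an added fold threshold kept Loxl2 as the 1 enzyme called. Ppp1r15b ranged from -1.91 to -1.57 with 1 library left out. Its call was lost without KO replicate 1, KO replicate 2, WT replicate 1 or WT replicate 3 (adjusted p = 0.118, 0.13, 0.168 and 0.173).

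Estimates near 0 changed sign. Plod1 was at -0.0055 when genes had to reach 1 CPM in each of the 6 libraries. Plod3 ranged from -0.10 (without KO replicate 3) to 0.10 (without KO replicate 2) with 1 library left out, and was at -0.10 with library quality weights and at -0.11 without both libraries. Serpinh1 ranged from -0.064 (without KO replicate 1) to 0.11 (without KO replicate 3), was at 0.02 without WT replicate 2, and at 0.014 with library size only, 0.11 with library quality weights and 0.12 without both. Where KO replicate 3 is left out the cause of a change was not tested. The mean TPM order kept 6 of the 10 places in KO without KO replicate 3. With 3 libraries a group, differences the size of that in Plod2 (-0.45) may go uncalled. Simulation recovered 48% at 2-fold, a larger change than that of Plod2, and no smaller change was simulated. It drew the libraries of a group alike, while in the data the common dispersion was 0.052 with KO replicate 3 and 0.0083 without it.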
